A study of Mus musculus with 18 samples.

Results

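Gene expression was compared between a pair of mouse induced pluripotent stem (iPS) cell lines, IP14D-101 and IP14D-1. iPS cells are somatic cells returned to a state like that of embryonic stem (ES) cells by reprogramming. The 3 arrays whose titles carry the name IP14D-101 were set against the 3 arrays of IP14D-1, which makes 6 of the 18 arrays analysed here. IP14D-101 is given as B6 x 129S2 F1 in strain and IP14D-1 as B6 x D2 F1. The remaining 12 arrays belong to 2 ES lines, R1 (129X1/SvJ x 129S1 F1) and ESC2 (B6 x D2 F1), and to 2 more iPS lines, IP20D-3 and IP36D-3 (both B6 x D2 F1), with 3 arrays each. All 6 lines were grown with LIF on mouse embryonic fibroblast feeders stopped with mitomycin C, in medium with either bovine serum or a serum replacement. The labels do not say which medium each line had, which genes reprogrammed the iPS lines, or whether feeder cells were removed before RNA extraction. Each strain cross in this pair is 1 line, so line and strain cannot be told apart. The series calls the 3 arrays of a line biological replicates. No label says whether they came from separate dishes or passages. The p-values therefore measure the spread between arrays of a line, pooled over all 6 lines and not taken from this pair alone.

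Mouse ES and iPS cells correspond to the naive epiblast of the early embryo and keep themselves in that state through a transcription factor network built around Oct4 (Pou5f1), Nanog and Sox2. LIF, acting through STAT3, helps to hold that state. The epiblast's first sister lineage is the primitive endoderm, which is specified by Gata6 and Gata4, lays down basement membrane and gives rise to the visceral and parietal endoderm. Cells in culture also carry a stress pathway in which the factors Atf4 and CHOP (Ddit3) switch on a shared set of genes when protein folding or amino acid supply is disturbed.

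Of 18193 genes, 678 were called different between the lines, at an adjusted p under 0.05 (limma, Benjamini-Hochberg) and a log2 difference of at least 1 (3.73%). IP14D-101 was higher in 249 of them (1.37% of all genes) and lower in 429 (2.36%). The gene lists used below were written with earlier results of these data known. All differences below are IP14D-101 minus IP14D-1 on the log2 scale of the deposited intensities. Because arrays of 1 line lay close together, the minimum difference and not the p-value set the number of calls. Arrays of the 2 lines overlapped in 1 called gene, and did not overlap in 48.1% of all genes. A lack of overlap therefore adds little to a call. An adjusted p under 0.05 was reached by 7153 genes, 4487 higher and 2666 lower in IP14D-101. Only 1 gene with a log2 difference of at least 1 in size was not called. List counts at an unadjusted p under 0.05 use a looser rule and should be read beside these 7153 genes. The median difference of all genes was 0.08, and with that shift removed the split became 178 higher and 523 lower.

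**Figure D1:**
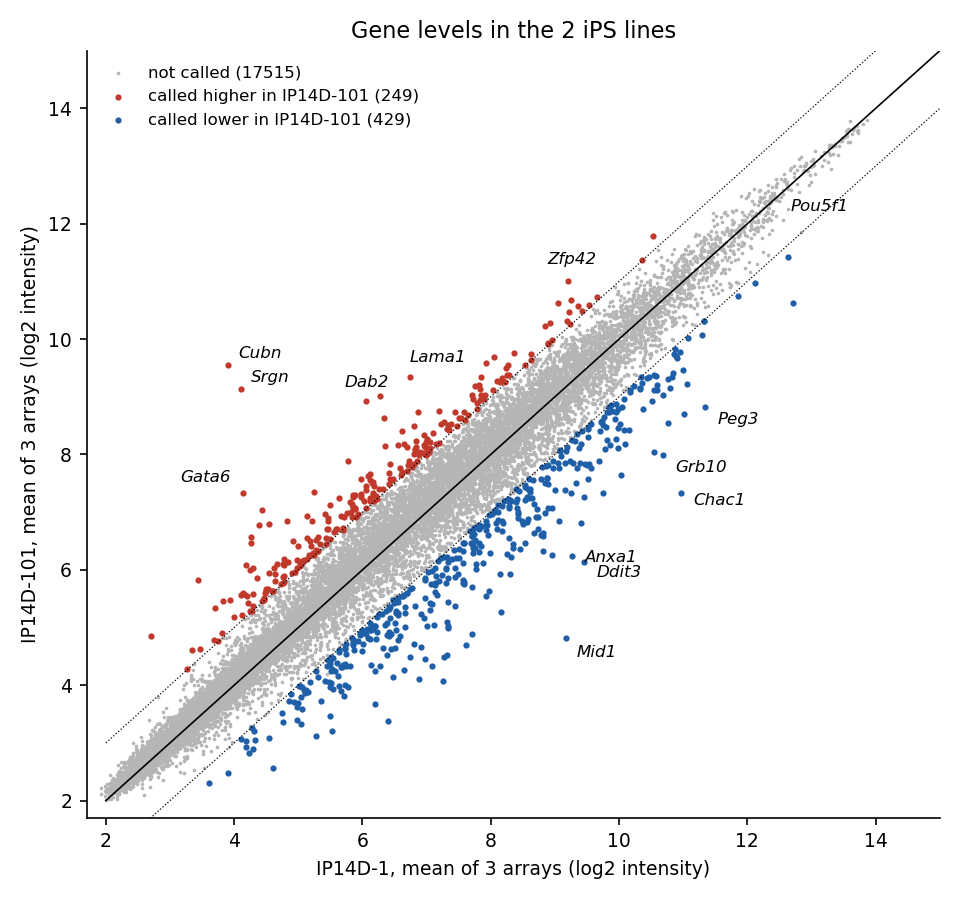
Mean log2 intensity of 18193 genes in IP14D-1 (horizontal) and IP14D-101 (vertical), each the mean of 3 arrays. Red points mark the 249 genes called higher in IP14D-101 and blue points the 429 called lower, the solid line marks equal levels and the dotted lines a log2 difference of 1, and Cubn, Srgn, Mid1 and Chac1 lie among the farthest from the solid line.

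Replicate 3 of IP14D-101 stood apart from the other 2 arrays of its line. The root mean square difference over all genes was 0.27 to 0.29 between it and its partners, against 0.17 to 0.19 for every other pair of arrays within these lines. It lay at least 1 (log2) below both partners in 67 genes and above both in 0 genes, whereas none of the other 5 arrays did so in any gene. Of those 67 genes, 36 were among the 429 called lower. Without this array 562 genes were called, 204 higher and 358 lower, and 536 of the original 678 were among them. Array measures of RNA differed between the lines as well. The 3' to 5' signal ratio of the actin control probe sets was 1.12 to 1.17 in IP14D-101 and 1.25 to 1.29 in IP14D-1, and the mean signal of the 18S ribosomal RNA probe sets was 24.8 to 29.4 against 46.9 to 57.5. Their part in the differences below was not tested.

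Pou5f1, Nanog and Sox2, the centre of the pluripotency network, were at like levels. Pou5f1 read 12.56, 12.62 and 12.59 in the 3 IP14D-101 arrays and 12.55, 12.50 and 12.61 in IP14D-1, a difference of 0.04 (SE 0.077, adjusted p = 0.756). Nanog differed by 0.19 (SE 0.084, adjusted p = 0.0912), Sox2 by -0.21 (SE 0.077, adjusted p = 0.0407) and Esrrb by 0.22 (SE 0.103, adjusted p = 0.101), all well under the minimum for a call. Klf4 and Myc differed by 0.13 and 0.06. With the median difference of all genes set to 0, Pou5f1 and Myc came to -0.05 and -0.02, so their direction is not settled.

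Of 37 measured pluripotency genes, 2 were called higher and 2 lower (5.41% each), with a median difference of 0.04. Over all genes 1.37% were called higher and 2.36% lower. At an unadjusted p under 0.05, 12 were higher and 12 lower. Among the members not called, differences ran from -0.75 (Tbx3) to 0.85 (Eras). Zfp42, which encodes Rex1, a widely used reporter of the naive state, was 11.04, 11.05 and 10.94 in IP14D-101 and 9.18, 9.34 and 9.11 in IP14D-1. Every IP14D-101 array was above every IP14D-1 array, by 1.80 on average (SE 0.072, adjusted p = 8.27e-12), a 3.48-fold difference. Fgf4, the FGF ligand made by epiblast cells, was higher by 1.06 (SE 0.093, adjusted p = 1.22e-07). The genes called lower were Rex2 and Rif1, which acts at telomeres and in replication timing. Rex2 read 6.89, 6.96 and 5.49 against 7.69 to 7.73 in IP14D-1, and Rif1 10.55, 10.63 and 9.77 against 11.27 to 11.38. In both, replicate 3 alone was far down, and without it the differences were -0.79 and -0.74 and no longer called. Fgf4 fell to 0.99 without that array, just under the minimum, which left Zfp42 as the called member of the list.

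Several genes of the LIF and STAT3 response were higher in IP14D-101. Of 17 measured, 4 were called higher (23.5%, beside 1.37% of all genes) and 1 lower (5.88%, beside 2.36%). The median was 0.47 beside 0.08 for all genes, with 11 higher and 3 lower at an unadjusted p under 0.05. Among members not called, Klf5 differed by -0.48, Pim1 by -0.4 and Osmr by -0.04. The rest of the uncalled members lay between 0.13 (Klf4) and 0.76 (Tfcp2l1). Socs3, the feedback inhibitor that STAT3 induces, was 10.60, 10.54 and 10.72 in IP14D-101 and 8.78, 8.93 and 9.44 in IP14D-1 (difference 1.57, SE 0.145, adjusted p = 1.92e-07). Gbx2, a STAT3 target that supports self-renewal, was 9.57, 9.50 and 9.66 against 7.84, 7.53 and 8.40 (1.65, SE 0.147, adjusted p = 1.34e-07). The arrays of the lines did not overlap for either gene, and the third IP14D-1 array was the highest of its line in both. Bcl3 and Ier3 were higher by 1.31 and 1.12. Socs3, Gbx2 and Bcl3 exceeded every array of the other 5 lines, as 131 of all 249 genes called higher did. Sp5, a target of Wnt signalling as well as of LIF, went the other way, with 5.56, 5.31 and 6.06 against 8.0, 7.87 and 8.07 (-2.34, SE 0.153, adjusted p = 3.78e-09). It was as low in IP20D-3 (mean 5.34) and high in R1 (8.42).

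The 2 largest rises among the named genes, Cubn and Srgn, belonged to the list of primitive and visceral endoderm. Of 27 measured members, 10 were called higher (37%, beside 1.37% of all genes) and 0 lower, with a median of 0.32. At an unadjusted p under 0.05, with no minimum difference, 17 were higher and 2 lower. In all 10, each of the 3 IP14D-101 arrays exceeded all 15 arrays of the other 5 lines. Among the 249 genes called higher, 131 did so.

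Cubn, which encodes cubilin, an uptake receptor of the visceral endoderm, read 9.66, 9.43 and 9.59 in IP14D-101 and 3.98, 3.89 and 3.84 in IP14D-1. This was the largest difference of any named gene, 5.66 (SE 0.163, adjusted p = 1.43e-13) or 50.5-fold. In the other lines its mean lay between 4.09 (IP20D-3) and 5.36 (IP36D-3), near the array medians of 4.87 to 4.93. Amn, cubilin's membrane partner, was 7.37, 7.12 and 7.56 against 5.07, 5.12 and 5.52 (2.11, SE 0.128, adjusted p = 1.34e-09). Dab2, the adaptor that carries this receptor complex into the cell, was 8.95, 8.89 and 8.94 against 5.91, 6.15 and 6.09 (2.87, SE 0.112, adjusted p = 5.24e-12). Thus the receptor, its partner and its adaptor were all higher, with narrow spread between arrays. Lrp2, or megalin, which works with cubilin, differed by 0.25 (SE 0.104, adjusted p = 0.0661) and was not called.

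The transcription factors of the lineage followed. Gata6 read 7.33, 7.27 and 7.42 in IP14D-101 and 3.96, 4.15 and 4.29 in IP14D-1 (3.20, SE 0.185, adjusted p = 8.32e-10), or 9.21-fold. Gata4 read 6.85, 6.59 and 6.95 against 4.58, 4.54 and 4.53 (2.25, SE 0.115, adjusted p = 1.72e-10). Both were under the array median in IP14D-1 and above it in all 3 IP14D-101 arrays. Sox17 was higher by 2.03 and Sox7 by 2.30, and both act with the Gata factors in endoderm. Pdgfra, a receptor that marks the primitive endoderm, was higher by 1.63 (5.29 to 5.57 against 3.77 to 3.93), and Pth1r, the parathyroid hormone receptor of the parietal endoderm, by 1.46. Srgn, which encodes the proteoglycan serglycin, rose from 4.37, 3.63 and 4.31 in IP14D-1 to 9.15, 9.19 and 9.07 in IP14D-101 (5.03, SE 0.154, adjusted p = 1.93e-13).

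Not every endoderm gene was higher. Afp and Ttr, secreted products of the more mature visceral endoderm, differed by 0.08 and 0.09 and lay at 3.68 to 4.07 and 5.17 to 5.56 in IP14D-101. Hnf4a differed by 0.10. Foxa2 differed by 0.67 (adjusted p = 7.13e-04), yet stayed at 4.10 to 4.32, under the array median. Apoe was lower in IP14D-101 by a difference of -0.88 (SE 0.094), below the minimum for a call. Over the list, 4 of 27 genes lay under the array median in IP14D-101 and 14 of 27 in IP14D-1. The summed linear intensity of the list was 7102 to 7804 in IP14D-101 and 6762 to 7536 in IP14D-1, ranges that overlap, and Apoe is the brightest member. These are bulk cultures, so a few cells with high levels cannot be told apart from a low level in many cells.

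A few basement membrane genes were higher as well. Of 20 measured, Lama1, Col4a1 and Col4a2 were called higher (15%, beside 1.37% of all genes) and 0 lower. The median was 0.14, with 8 higher and 3 lower at an unadjusted p under 0.05. Lama1, the laminin chain that primitive endoderm secretes, read 9.35, 9.31 and 9.38 against 6.75, 6.76 and 6.72 (2.60, SE 0.066, adjusted p = 3.13e-14). The 3 arrays of each line lay within an SD of 0.037 (IP14D-101) and 0.021 (IP14D-1), and IP14D-101 was 6.08-fold higher. Col4a1 and Col4a2, the collagen IV chains encoded side by side, were higher by 1.64 and 1.57. Lamb1 and Lamc1, the laminin chains that join Lama1 in the trimer, were higher by 0.42 (SE 0.090) and 0.73 (SE 0.075), below the minimum. Not all members shared the direction. Sparc, which primitive endoderm and fibroblasts both secrete, differed by -0.13 (SE 0.075, adjusted p = 0.188), fibronectin (Fn1) by -0.12 and agrin (Agrn) by -0.31.

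**Figure D2:**
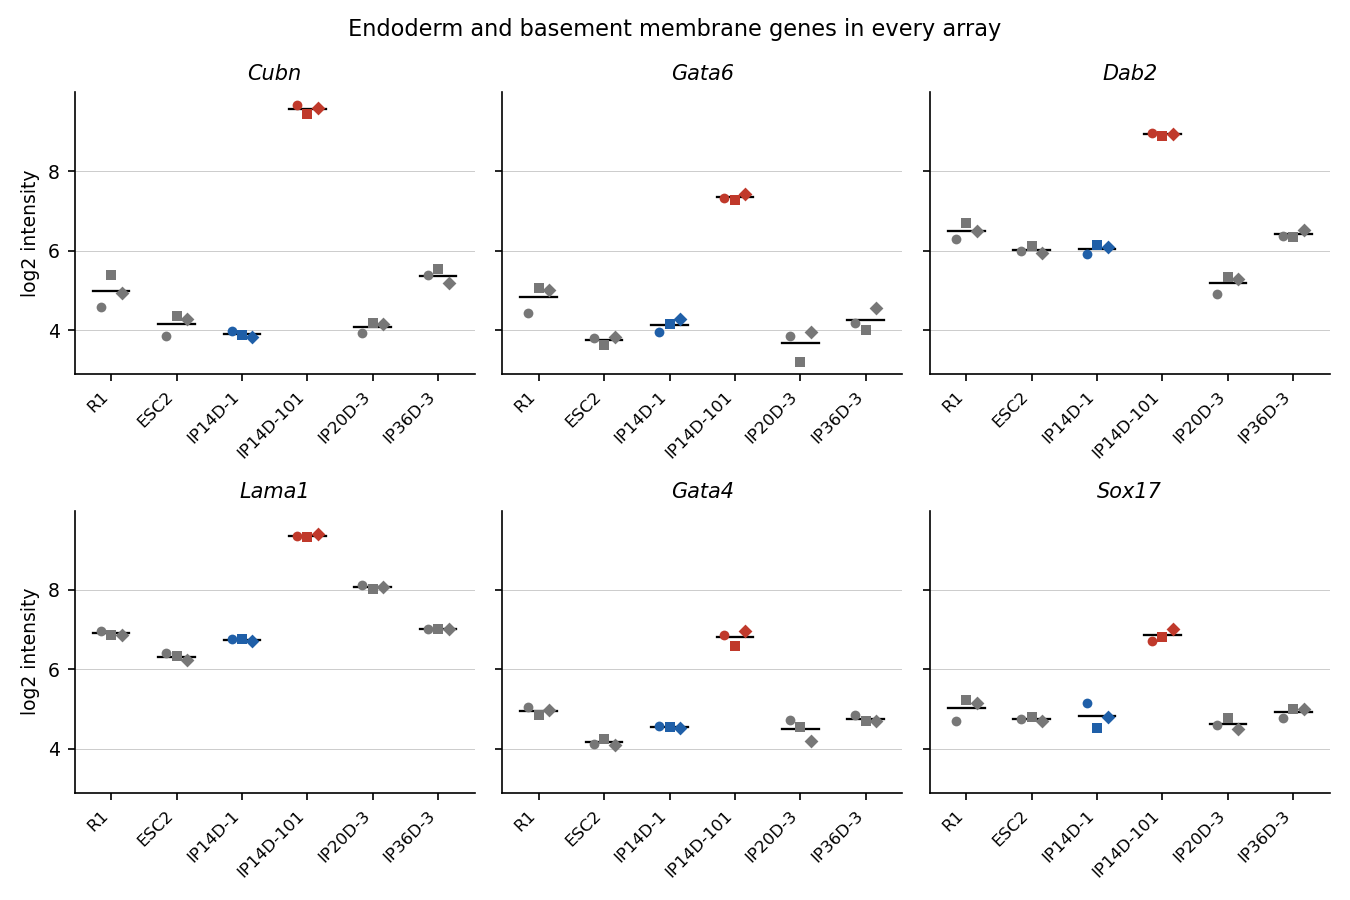
Log2 intensity of 6 endoderm and basement membrane genes in each of the 18 arrays, by line. Circle, square and diamond stand for replicates 1, 2 and 3, black bars for the line mean, red for IP14D-101, blue for IP14D-1 and grey for the other 4 lines. In each panel the 3 red points lie above all other points, with Gata6 at 7.27 to 7.42 in IP14D-101 and Lama1 second highest in IP20D-3.

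Lists of other lineages had fewer called members than the 10 of the endoderm list. Of 22 primitive streak and mesoderm genes, 1 was called higher (4.55%) and 0 lower, with 4 in each direction at an unadjusted p under 0.05. Of 16 neuroectoderm genes, 2 were called in each direction (12.5% each). Over all genes 1.37% were called higher and 2.36% lower. The neuroectoderm genes called higher were Olig1 and Olig2, adjacent genes for neural transcription factors, at 1.39 and 1.17. Dll1 and Irx3 were called lower, at -1.15 and -1.02. Sox1 and Pax6, defining neural markers, differed by 0.51 and 0.29 and were not called. Of 19 trophectoderm genes, 0 were called higher and 3 lower (15.8%, beside 2.36% of all genes), the keratins Krt8, Krt18 and Krt19. At an unadjusted p under 0.05, 3 were higher and 9 lower, and the list median was -0.04. Cdx2 and Gata3, defining factors of that lineage, differed by -0.92 and -0.88.

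Genes of the stress pathway were lower in IP14D-101. The CHOP and endoplasmic reticulum (ER) stress list had 25 measured members, with a median of -0.86. Of these, 11 were called lower in IP14D-101 (44%, beside 2.36% of all genes) and 1 higher (4%, beside 1.37%). Chac1, which encodes a glutathione-degrading enzyme induced through Atf4 and CHOP, read 7.31, 7.07 and 7.63 in IP14D-101 and 11.10, 11.24 and 10.59 in IP14D-1 (-3.64, SE 0.306, adjusted p = 6.91e-08), a 12.5-fold difference. Ddit3, which encodes CHOP, read 6.15, 6.21 and 6.02 against 9.60, 9.82 and 8.95 (-3.33, SE 0.234, adjusted p = 8.62e-09). Every IP14D-1 array was above every IP14D-101 array for both genes, with a wide gap between them.

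Upstream, Atf4 itself was lower by a smaller amount, with 10.71, 10.69 and 10.81 against 11.98, 11.86 and 11.70 (-1.11, SE 0.112, adjusted p = 4.95e-07). Further factors of the pathway followed, with Atf3 at -2.92 (SE 0.233), Nupr1 at -2.20 (SE 0.276), Jdp2 at -1.89 and Cebpb at -1.54. Trib3, a pseudokinase that CHOP induces and that dampens the response, was at -1.96. Among the effectors, Stc2, a secreted glycoprotein, was at -2.89, Vldlr, a lipoprotein receptor, at -2.75 and Herpud1, which takes part in ER-associated degradation, at -2.41. In all 11 genes called lower, replicate 3 was the lowest of the IP14D-1 arrays, as it was in 237 of all 429 genes called lower. Without that array 12 members were called lower, and 11 to 12 without any other array of these lines.

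Chaperone genes of the same list mostly did not share this direction. Hspa5, the main ER chaperone, was higher by 0.45 (SE 0.081, adjusted p = 2.04e-04) and Xbp1, the factor that drives chaperone genes, by 0.53 (SE 0.101, adjusted p = 3.80e-04), both below the minimum for a call. Sdf2l1, an ER chaperone partner, was the 1 member called higher, at 1.07 (SE 0.101), and lost the call when the median difference of all genes was set to 0. Dnajb9, another chaperone partner, differed by -0.86 (SE 0.078). The list thus held genes of opposite sign, and those called lower were mainly the transcription factors and their targets.

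Genes of amino acid, serine and one-carbon supply, many of them driven by Atf4, differed by smaller amounts. Of 36 measured, 2 were called lower (5.56%, beside 2.36% of all genes) and 0 higher, with a median of -0.33. At an unadjusted p under 0.05, 23 were lower and 5 higher. The called genes were Slc6a9, a glycine transporter, and Aldh1l2, a mitochondrial folate enzyme, at -1.04 and -1.02, and both lost the call in some of the runs that leave out 1 array. Asns, asparagine synthetase, read 11.41, 11.41 and 11.49 against 11.74, 11.84 and 11.56 (-0.28, SE 0.083, adjusted p = 0.0117). Psat1 and Psph, enzymes of serine synthesis, differed by -0.12 and -0.08.

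Across the 6 lines, the stress genes were not highest in IP14D-1 alone. Mean Ddit3 was 9.86 in IP20D-3, 9.46 in IP14D-1 and 8.05 in IP36D-3, and it was 6.50 in R1, 6.33 in ESC2 and 6.13 in IP14D-101. Mean Chac1 was 10.97 in IP14D-1 and 10.73 in IP20D-3, then 9.42, 7.65, 7.34 and 5.63 in IP36D-3, R1, IP14D-101 and ESC2. In 4 of the 11 genes called lower, Ddit3, Atf3, Vldlr and Herpud1, the IP14D-101 arrays lay below all 15 other arrays. The same held for 119 of all 429 genes called lower. For Chac1 the IP14D-101 arrays lay within the range of the ES lines.

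**Figure D3:**
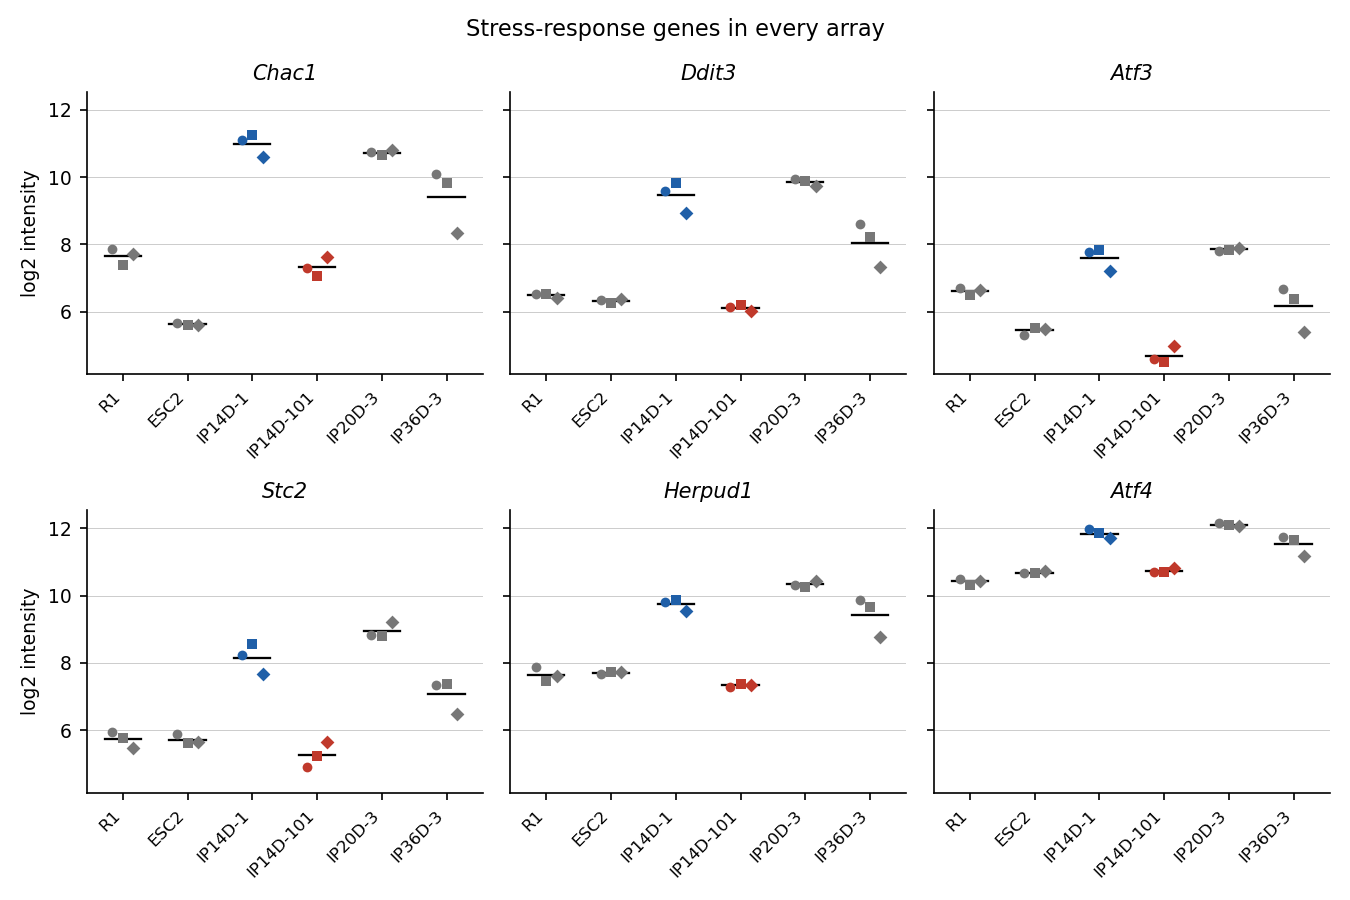
Log2 intensity of 6 stress-response genes in each of the 18 arrays, by line. Symbols stand for replicates 1 (circle), 2 (square) and 3 (diamond), bars for line means, red for IP14D-101, blue for IP14D-1 and grey for the other lines; Ddit3 is at 6.02 to 6.21 in IP14D-101 and 8.95 to 9.82 in IP14D-1, with IP20D-3 as high as IP14D-1.

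Because these genes were low together, their promoters were searched for TGATGNAA on both strands, the core of the C/EBP-ATF response element to which Atf4 and CHOP dimers bind. Windows ran from 250 bases before to 50 after each annotated start (RefSeq, GRCm38.p6). The match was present in 3.97% of 32851 windows. It was present for 7 of the 11 stress genes called lower (Chac1, Trib3, Atf3, Nupr1, Vldlr, Herpud1 and Jdp2) and for 0 of the other 13 members with a window. Over all genes with a window it was present for 3.24% of those tested, 5.36% of those called lower (18 of 336) and 2.46% of those called higher. The 18 include the 7 stress genes, and the stress list was written with earlier results of these data known. These counts therefore do not show that the match marks genes called lower in general. The 250 bases before the start are shown for 4 genes that share the same 8 letters, with the match in capitals as it reads on the gene's strand, the reverse complement of the searched motif. They come from chr2:119350992-119351241 (forward strand), chr1:191183334-191183583 (reverse strand), chr8:94386179-94386428 (forward strand) and chr7:126625471-126625720 (reverse strand).
Chac1: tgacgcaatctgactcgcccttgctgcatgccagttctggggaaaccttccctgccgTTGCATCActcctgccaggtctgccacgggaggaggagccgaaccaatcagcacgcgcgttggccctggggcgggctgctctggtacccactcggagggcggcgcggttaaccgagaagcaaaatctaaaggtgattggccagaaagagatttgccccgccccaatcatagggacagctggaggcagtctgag
Atf3: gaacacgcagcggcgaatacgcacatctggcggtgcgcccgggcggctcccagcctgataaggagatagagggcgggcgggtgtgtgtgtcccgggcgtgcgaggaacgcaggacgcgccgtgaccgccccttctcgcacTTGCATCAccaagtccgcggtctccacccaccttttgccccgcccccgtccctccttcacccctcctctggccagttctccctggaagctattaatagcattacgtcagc
Herpud1: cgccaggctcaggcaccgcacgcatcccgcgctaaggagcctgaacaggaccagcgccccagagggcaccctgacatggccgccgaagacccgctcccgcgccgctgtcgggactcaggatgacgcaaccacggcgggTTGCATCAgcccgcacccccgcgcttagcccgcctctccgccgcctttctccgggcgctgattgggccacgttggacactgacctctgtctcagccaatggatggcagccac
Nupr1: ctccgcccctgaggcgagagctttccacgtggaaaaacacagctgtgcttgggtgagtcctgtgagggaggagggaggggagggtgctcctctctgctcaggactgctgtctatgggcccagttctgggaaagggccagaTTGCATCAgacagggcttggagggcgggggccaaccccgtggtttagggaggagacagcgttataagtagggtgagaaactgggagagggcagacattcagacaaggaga
The match began 193 bases before the start in Chac1, 110 in Atf3, 112 in Herpud1 and 110 in Nupr1. These letters describe the sequence and no binding was measured.

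A group of fibroblast genes was lower in IP14D-101. Of 34 measured members of the fibroblast matrix list, 12 were called lower (35.3%, beside 2.36% of all genes) and 0 higher. The list median was -0.38, and at an unadjusted p under 0.05 18 members were lower and 2 higher. Their summed linear intensity was 3474 to 3865 in IP14D-101 and 6330 to 6599 in IP14D-1, so the ranges did not overlap. In IP14D-101 21 of the 34 lay under the array median, and in IP14D-1 12. Several of the called members were dim in both lines, and the count was 7 when genes without a mean of 6 in either line were left out.

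Lox, which crosslinks collagen, read 4.58, 4.17 and 4.60 against 6.92, 6.98 and 7.0 (-2.52, SE 0.168, adjusted p = 4.66e-09), with 1 of its other 2 probe sets in the same direction. Thbs1, a matrix glycoprotein, read 5.68, 5.73 and 5.68 against 7.69, 7.69 and 7.76 (-2.01, SE 0.126, adjusted p = 2.01e-09). Col3a1 and Col1a2, fibrillar collagens, were at -1.30 and -1.03. Both lay in the dim range, Col3a1 at 3.52 to 4.01 against 4.62 to 5.56. Among the defining fibroblast markers, Thy1 (-0.16), Pdgfrb (0.16), Prrx1 (-0.08) and Vim (0.03) were not called, and Prrx1 stayed at 3.31 to 3.66 in all 6 arrays. The cultures stood on feeder fibroblasts, whose share in each sample is not given and was not tested.

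The list of contractile genes and targets of SRF and YAP shares 3 of its called members, Acta2, Tagln and Thbs1, with the fibroblast list. Of 25 measured, 9 were called lower (36%, beside 2.36% of all genes), these 3 included, and 0 higher. The list median was -0.85, and at an unadjusted p under 0.05 24 members were lower and 1 higher. Summed intensity was 10260 to 11239 in IP14D-101 and 19247 to 19624 in IP14D-1. It was lower still in IP20D-3 (8001 to 8347), and higher than in IP14D-101 in IP36D-3 (12369 to 12819), ESC2 (16307 to 17038) and R1 (26566 to 28581). Tagln, an actin-binding protein of smooth muscle and fibroblasts, read 8.44, 8.48 and 8.73 against 10.71, 10.76 and 10.81 (-2.21, SE 0.117, adjusted p = 2.79e-10). Acta2, smooth muscle actin, was at -2.38, although its 2 other, dim probe sets did not share the direction. Ccn1, a YAP target, was at -1.56, Tpm1 at -1.17 and Myl9 at -1.38. With the mean of all probe sets of a gene in place of the brightest, 5 members were called lower.

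Krt8, Krt18, S100a6 and Anxa1 were also called lower. Krt8 and Krt18, paired keratins of simple epithelia, read 8.0 to 8.35 and 8.04 to 8.22 in IP14D-101 against 10.06 to 10.12 and 9.83 to 10.07 in IP14D-1 (-1.91, SE 0.136 and -1.87, SE 0.159). Mean Krt8 was highest in R1 (11.29), then IP14D-1 (10.09), ESC2 (9.76), IP36D-3 (8.65), IP14D-101 (8.18) and IP20D-3 (7.95). Tagln ran from R1 (12.01) through IP14D-1 (10.76), ESC2 (10.16), IP36D-3 (9.07) and IP14D-101 (8.55) to IP20D-3 (7.87). S100a6, a calcium-binding protein, was 6.73 to 6.91 against 9.32 to 9.49 (-2.57, SE 0.132). Anxa1, a phospholipid-binding protein, was at -3.03 (SE 0.186) by its brightest probe set, but its other probe set, which was dim, did not share the direction. R1, an ES line, was thus above IP14D-1 in some of these genes, so high levels were not a property of IP14D-1 alone.

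Signals and inhibitors of the TGF-beta and Wnt families differed in part. Of 24 genes of Nodal, BMP and Wnt signalling, 2 were called higher (8.33%) and 3 lower (12.5%), with a median of -0.07. Over all genes 1.37% were called higher and 2.36% lower. Id3 and Id2, direct BMP targets, read 7.63 to 8.01 and 7.70 to 7.86 in IP14D-101 against 9.40 to 9.89 and 9.25 to 9.40 in IP14D-1 (-1.80, SE 0.143 and -1.58, SE 0.093). IP14D-101 had the lowest line mean of the 6 for both. Dkk1, a secreted Wnt inhibitor, was 5.44, 5.22 and 5.37 against 3.99, 3.62 and 3.50 (1.64, SE 0.132, adjusted p = 4.07e-08). Fst, which encodes the activin inhibitor follistatin and was outside that list, was 4.79, 4.73 and 5.14 against 7.55, 7.45 and 8.14 (-2.82, SE 0.166, adjusted p = 9.25e-10). Wls, needed for Wnt secretion, was 4.71, 4.35 and 4.40 against 7.38, 7.35 and 7.10 (-2.79, SE 0.115, adjusted p = 1.07e-11). IP14D-101 was the lowest of the 6 lines in both Fst and Wls. Of 21 ERK feedback and FGF genes, 3 were called lower (14.3%) and 1 higher (4.76%), with Dusp4 at -1.39.

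Several metabolic genes were higher in IP14D-101. Of 26 measured genes of glycolysis and the hypoxia response, 7 were called higher (26.9%, beside 1.37% of all genes) and 0 lower. The list median was 0.58, and at an unadjusted p under 0.05 22 members were higher and 1 lower. Egln3, the oxygen-sensing hydroxylase induced by hypoxia, read 8.45, 8.75 and 9.01 against 6.77, 6.45 and 7.35 (1.88, SE 0.169, adjusted p = 1.43e-07). P4ha1 and P4ha2, collagen prolyl hydroxylases, were higher by 1.78 and 1.33. The lactate exporter Slc16a3 was higher by 1.50, hexokinase Hk1 by 1.25, the mitophagy receptor Bnip3 by 1.21 and Aldoc by 1.20. In 6 of the 7, all but Slc16a3, the IP14D-101 arrays exceeded every array of the other 5 lines. The same held for 131 of all 249 genes called higher. The main glycolytic enzymes moved less, with Ldha at 0.33 and Pgk1 at 0.29, and the glucose transporter Slc2a3 at -0.08.

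All 20 measured genes of cholesterol synthesis were above 0 (19 with the median difference of all genes set to 0), with a median of 0.77. Among them 4 were called higher (20%, beside 1.37% of all genes). At an unadjusted p under 0.05, 19 were higher and 0 lower. Fdps, which makes farnesyl diphosphate, read 10.58, 10.55 and 10.90 against 9.23, 9.01 and 9.50 (1.43, SE 0.128, adjusted p = 1.39e-07). Dhcr7, the last enzyme of the pathway, and Mvd were higher by 1.31 and 1.30, and Fdft1 by 1.03. IP14D-101 was not the highest line for each of these genes. Mean Fdps was 10.76 in IP36D-3, 10.68 in IP14D-101, 10.52 in ESC2, 10.22 in R1, 9.25 in IP14D-1 and 9.16 in IP20D-3. With the mean of all probe sets of a gene, 2 members were called. In the list of fatty acid synthesis and storage, 4 of 20 were called higher (20%) and 1 lower (5%, beside 2.36% of all genes), with a median of 0.63. Scd1, the desaturase of stearate, was higher by 1.57 (SE 0.102) and Fads2 by 1.17, while Plin2, which coats lipid droplets, was at -1.23 (SE 0.080). Without replicate 3 of IP14D-101, 2 members were called higher, as Acaca and Acss2 came to 0.99 and 0.94.

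**Figure D4:**
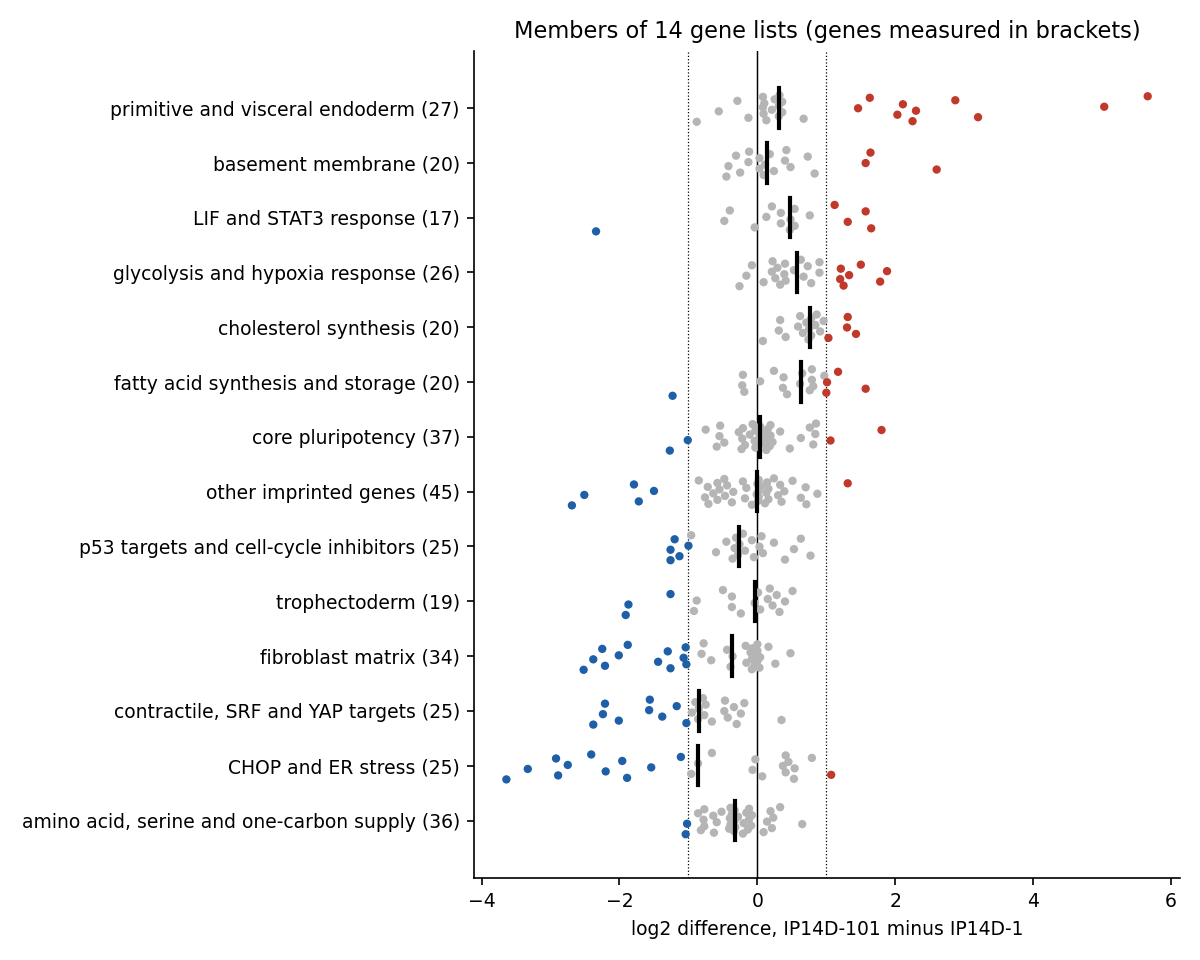
Log2 difference (IP14D-101 minus IP14D-1) of each measured member of 14 gene lists, with the number measured in brackets. Red and blue points were called higher and lower, grey points were not called, black bars are list medians, and dotted lines mark a difference of 1; medians run from 0.77 for cholesterol synthesis to -0.86 for CHOP and ER stress.

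Imprinted genes, which are expressed from 1 parental copy, differed in some members. Of 45 measured outside of the Dlk1-Dio3 region, 5 were called lower (11.1%, beside 2.36% of all genes). Dhcr7, which is also a cholesterol gene, was the 1 called higher, and the list median was -0.01. At an unadjusted p under 0.05, 18 were lower and 11 higher. Grb10, a growth-restraining adaptor, read 7.97, 8.01 and 7.99 in IP14D-101 and 10.66, 10.80 and 10.56 in IP14D-1 (-2.69, SE 0.083, adjusted p = 1.93e-13). The other 4 lines had means of 10.26 to 11.71, so IP14D-101 stood alone, and both other probe sets shared the direction. Peg3, a zinc finger gene expressed from the paternal copy, read 9.01, 8.84 and 8.63 against 11.30, 11.35 and 11.36 (-2.51, SE 0.093, adjusted p = 2.66e-12), and both of its other probe sets of mean at least 6 shared the direction, while 2 further probe sets lay at 2.17 to 2.56 in every line. Impact and Plagl1 were at -1.50 and -1.79. For Grb10, Peg3 and Impact the IP14D-101 arrays lay below all 15 others, whereas Plagl1 was also low in IP36D-3 (7.96, against 7.77). Of all 429 genes called lower, 119 had every IP14D-101 array below all others. Igf2 differed by 0.02 (SE 0.133).

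In the Dlk1-Dio3 region, whose maternally expressed RNAs are silenced in some mouse iPS lines, 2 of 5 measured genes were called lower. This was 40% of a short list, beside 2.36% of all genes. Meg3 read 9.87, 10.11 and 9.14 in IP14D-101 and 10.81, 10.97 and 10.90 in IP14D-1 (-1.19, SE 0.163, adjusted p = 1.40e-05). Replicate 3 was the lowest, and without it the difference was -0.90 and not called. Rian was at -1.46 (6.20, 6.17 and 5.99 against 7.43, 7.37 and 7.92) and Mirg at -0.64 (SE 0.172, adjusted p = 0.00609). All of these were far above IP20D-3 and IP36D-3, where mean Meg3 was 5.23 and 5.90 and mean Rian 3.55 and 3.71. Dlk1, expressed from the paternal copy, differed by -0.16 (SE 0.128, adjusted p = 0.349). Among genes that maintain imprints, Khdc3 was higher by 1.61 (SE 0.110) and Zfp57 by 0.87 (SE 0.094), the latter below the minimum. Zfp445 was at -1.08, and at -0.77 without replicate 3.

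A share of the differences separated R1 and IP14D-101, the lines that are not B6 x D2 F1, from the 4 B6 x D2 F1 lines. In 236 of the 678 called genes (34.8%) all 6 arrays of R1 and IP14D-101 lay on one side of the 12 arrays of the other lines, beside 11.3% of all genes. A call nearly always means that the arrays of IP14D-101 and IP14D-1 do not overlap, which this pattern requires too. Among the 8748 genes without such overlap the share was 23.5%. Of the 236, 151 were lower and 85 higher in IP14D-101. For 78 of them another probe set of the same gene reached a mean of 6, and in 71 all such probe sets shared the direction.

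Mid1, an X-linked ubiquitin ligase of microtubules, had the largest of these differences. It read 4.77, 5.02 and 4.64 in IP14D-101 and 9.0, 9.36 and 9.19 in IP14D-1 (-4.38, SE 0.130, adjusted p = 1.75e-13). R1 was as low, at 4.18, and the other 3 lines lay between 8.61 and 9.45. Its 2 other probe sets were dim and did not share the direction. Taf15, an RNA-binding protein, read 4.38, 4.41 and 3.51 against 6.91, 7.10 and 6.64, with R1 at 3.36. Zfp42 and Stra8, a retinoic acid target of the germline, were on the high side, Stra8 with 9.02, 9.09 and 8.95 against 6.29, 6.37 and 6.16 (2.75, SE 0.161, adjusted p = 9.01e-10) and 8.25 in R1. Wls, Gadd45g, Peg3 and Ankrd31 belonged to the low side, but R1 was not as low as IP14D-101 in all of them. Mean Wls was 6.59 in R1, closer to IP36D-3 (6.85) than to IP14D-101 (4.49). Mean Peg3 was 9.51 in R1, 8.82 in IP14D-101 and 10.01 in IP20D-3. R1 and IP14D-101 were also the lines with the lowest 18S signal (33.8 to 35.3 in R1, at least 46.9 in the other lines) and the lowest actin ratio (1.12 to 1.13 in R1, at least 1.24 in the other lines). Strain and these array measures therefore cannot be told apart over the 6 lines.

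Kcnq1ot1, Neat1 and Atrx, chosen after their values were seen, showed this pattern together with the low replicate 3. Kcnq1ot1, the long antisense RNA of an imprinted domain, read 7.08, 7.12 and 5.48 in IP14D-101 and 8.23, 8.35 and 8.26 in IP14D-1 (-1.72, SE 0.279, adjusted p = 7.74e-05). Neat1, the scaffold RNA of nuclear paraspeckles, read 7.0, 7.30 and 6.25 against 8.98, 9.20 and 9.0 (-2.21, SE 0.193, adjusted p = 1.00e-07), and its other probe set, which was dim, did not share the direction. Atrx, a chromatin remodeller encoded by a long X-linked gene, read 9.58, 9.75 and 8.37 against 11.04, 11.12 and 11.01 (-1.83, SE 0.228, adjusted p = 5.31e-06). In each, all 3 IP14D-101 arrays were below IP14D-1 and replicate 3 was lowest. R1 was low in the same genes, with means of 6.70, 6.83 and 9.02. The long non-coding RNAs Xist and Meg3 did not show the pattern. Mean Xist was 6.89 in R1, 6.70 in IP14D-101 and 6.53 in ESC2, and mean Meg3 was 10.19 in R1 and 5.23 in IP20D-3. Genes with a mean of at least 6 over all arrays of the series were split into 4 equal bins by genomic span. The median difference was 0.17 for the shortest genes, 0.11 and 0.05 in the next bins and 0.00 for the longest genes. The share called lower was 2.86% in the first of these bins and 5.05% in the last. Without replicate 3 the medians were 0.13, 0.09, 0.05 and 0.02.

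**Figure D5:**
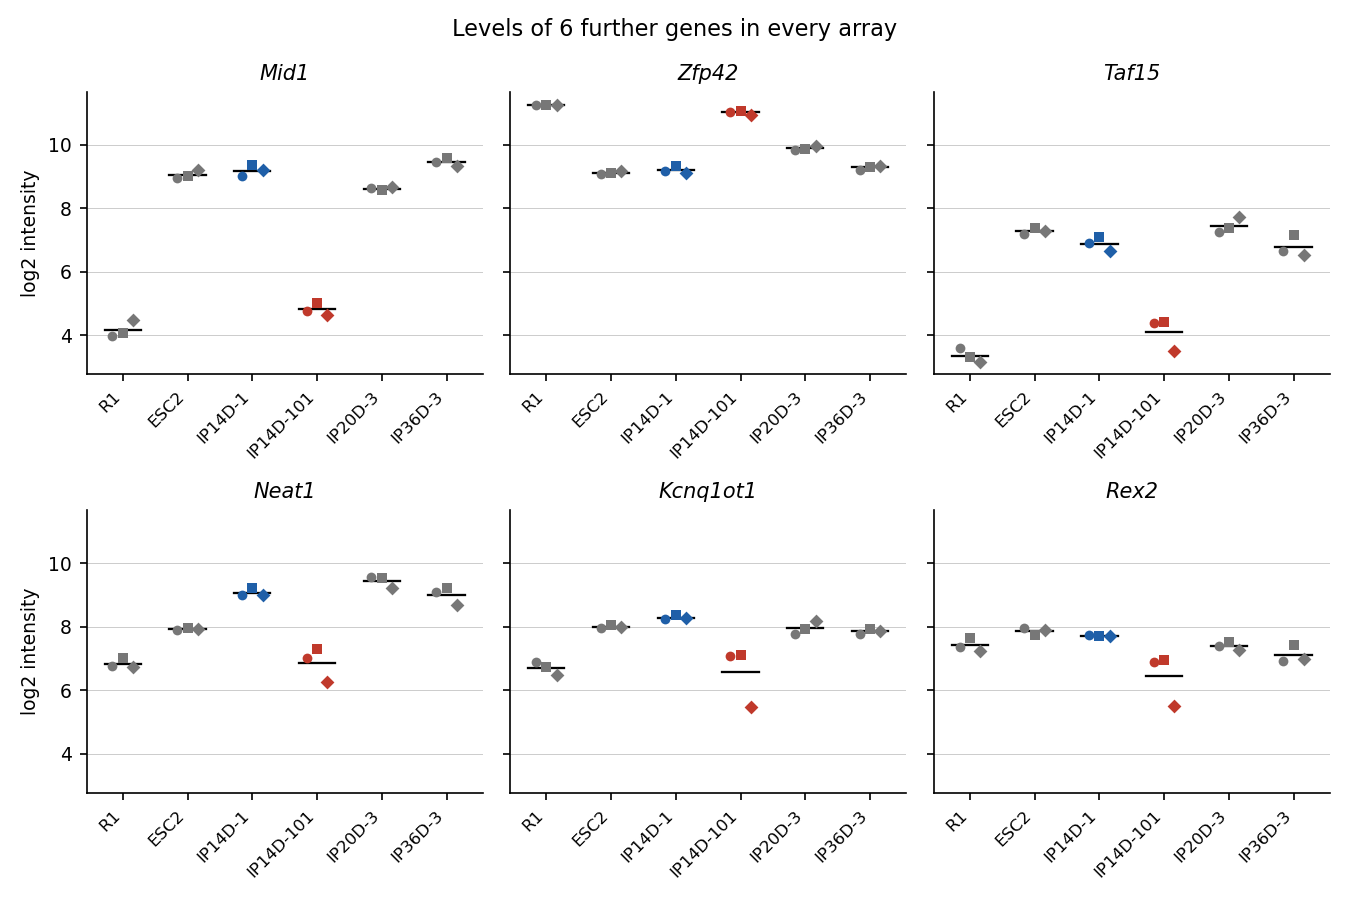
Log2 intensity of Mid1, Zfp42, Taf15, Neat1, Kcnq1ot1 and Rex2 in each of the 18 arrays, by line, with circles, squares and diamonds for replicates 1, 2 and 3, bars for line means, red for IP14D-101 and blue for IP14D-1. In the first 4 genes R1 and IP14D-101 lie together away from the other lines, and in Kcnq1ot1 and Rex2 the third IP14D-101 array lies at 5.48 and 5.49, below its partners.

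Calls were spread over the chromosomes, and on most autosomes more genes were called lower than higher. Of 617 X-linked genes, 5 were called higher (0.81%, beside 1.37% of all genes) and 31 lower (5.02%, beside 2.36%). The highest share called lower on an autosome was 3.29%, on chromosome 3. At a mean of at least 6 the median difference of X-linked genes was -0.21, or -0.14 without replicate 3. On the autosomes the medians at that level lay between -0.02 and 0.18. Rlim, the X-linked ubiquitin ligase that promotes X inactivation, read 9.26, 9.37 and 8.73 against 10.61, 10.66 and 10.50 (-1.47, SE 0.149, adjusted p = 5.02e-07). Xist differed by -0.37 (SE 0.184, adjusted p = 0.123), with 6.93, 7.05 and 6.13 against 6.88, 7.25 and 7.10. The Y-linked genes Eif2s3y (7.40, 7.42 and 6.97 against 8.44, 8.76 and 8.47) and Uty (5.03, 5.56 and 4.45 against 6.89, 6.80 and 6.32) were lower by differences of -1.29 and -1.66, while still at or above the array median in most arrays of both lines.

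No gene was called among 33 Hox genes, 21 Polycomb genes or 19 genes of antigen presentation, whose medians were 0.10, 0.03 and 0.18. At an unadjusted p under 0.05 in the same limma fit, 4 of the Hox genes, 12 of the Polycomb genes and 10 of the antigen presentation genes differed in either direction. Beside these, 7153 of all 18193 genes had an adjusted p under 0.05, a stricter rule. Of 25 p53 targets and cell-cycle inhibitors, 5 were called lower (20%, beside 2.36% of all genes) and 0 higher, with a median of -0.26. At an unadjusted p under 0.05, 13 were lower and 5 higher. The called genes included Cdkn2b (-1.26), Gadd45a (-1.20) and Pmaip1 (-1.13). Of 24 germline genes, 2 were called in each direction (8.33% each, beside 1.37% higher and 2.36% lower of all genes). Those higher were Stra8, given above, and Stag3 at 1.07. The prostaglandin synthase gene Ptgs2 (3.0, 3.23 and 3.92 against 6.33, 6.69 and 6.20) and the protease gene Prss23 (4.40, 3.63 and 4.18 against 7.35, 7.39 and 7.05) were among the largest falls outside the lists, at -3.02 and -3.19. Both were high in ESC2 as well, with means of 6.95 and 7.78.

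The lines were also placed against the other 4. In 305 of 678 (45%) the mean of IP14D-101 alone lay outside of the range of the means of R1, ESC2, IP20D-3 and IP36D-3, and in 84 (12.4%) that of IP14D-1 alone. The same shares were 25.2% and 12.4% over all genes, and 34.1% and 16.4% over the genes whose arrays of the 2 lines do not overlap. Among the genes with the mean of IP14D-1 alone outside, Acta2 had 10.03 in IP14D-1 and 8.87 in the next line, ESC2. In others the gap was small, as for Chac1 (10.97, with 10.73 in IP20D-3) and Lox (6.97, with 6.81 in ESC2). In 185 called genes both lines lay inside of that range. For scale, the number of genes called between any 2 of the 6 lines ran from 459, for IP14D-101 against R1, to 2310, for IP20D-3 against R1.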

How the data were processed

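Total RNA of 18 cultures was hybridised to Affymetrix mouse expression arrays. The deposited intensity values were made by the authors with RMA, per the submitters' processing notes and the series' design text. RMA corrects background, equalises array distributions and summarises probes, which compresses small differences and can hide a shift of all genes. The RMA version and any filter are not given in the sources used here. Values were linear, with array medians of 29.2 to 30.5 over the lines compared, and were taken to log2 without an offset.

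Of 45101 probe sets, 64 controls were left out. Symbols came from the platform annotation, with 34945 probe sets having 1 symbol, 932 several and 9160 none. By gene identifier, 34741 of the 34945 matched a RefSeq table (GRCm38.p6). Where a gene had several probe sets, the one with the greatest average level stood for it, which gave 18193 genes. Differences came from limma 3.58.1 (R 4.3.3), fitted to all 18 arrays with 1 coefficient for each line, which left 12 residual degrees of freedom, with moderated tests and Benjamini-Hochberg adjustment over all genes. Genes were called when the adjusted p was below 0.05 and the lines differed by 1 or more on the log2 scale. Only 3 arrays per line limit the precision. The fit was tested on simulated data. Tables and plots used Python 3.11.15, pandas 2.3.3, numpy 2.4.6 and matplotlib 3.10.9.

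The comparison, the 32 gene lists and the tests were chosen with earlier results of these data known. Named genes were the 20 largest rises and falls among called genes with a higher line mean of at least 6 and no overlap of arrays, leaving out clone and predicted symbols, up to 6 called members of each list in each direction, and a short fixed set that included Pou5f1, Nanog, Sox2 and Xist. Not all of them are printed, and uncalled list members were named as contrast after their values were seen. Alternatives were the 6 arrays alone, the replicate number as a block, each array left out, 3 scalings, an offset of 16, a level filter, other probe set rules, other thresholds, array weights, an intensity trend, and the genes without chromosome 8. Counting only calls whose other probe sets of mean at least 6 agreed in direction, and list counts without replicate 3 of IP14D-101, were added after seeing the data.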

Additional observations from a re-analysis of the deposited data

How the results depend on the processing

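Under the alternatives tried, the counts of called genes moved with the threshold and with the treatment of dim values. With 16 added before log2, 412 genes were called (139 higher, 273 lower in IP14D-101). With every probe set as a feature there were 1357 (395 and 962). With no minimum difference there were 7153 (4487 and 2666), and at a log2 difference of at least 2 there were 72 (17 and 55). Fibroblast members called lower went from 12 to 6 with the offset, 7 with genes of mean at least 6 only, 6 with the mean of all probe sets and 5 at a difference of at least 2, where stress members called lower went from 11 to 7. The offset, the level filter and the thresholds act on dim or small differences by construction. With replicate number as a block 678 genes were called, 249 higher and 429 lower, and all 678 were the same genes. Same-numbered arrays deviated together with correlations of -0.10, 0.11 and 0.06, so the numbers were not taken to pair the samples. Leaving out each array in turn gave 562 to 770 called genes, with 204 to 296 higher and 358 to 484 lower. Endoderm members called higher stayed at 10, fibroblast members called lower at 10 to 12 and stress members at 11 to 12. Equal array medians gave 294 higher and 390 lower. Myc ranged from -0.02 (without IP14D-1 replicate 2) to 0.16 when 1 array was left out, and turned to -0.02 after centring on the median of all genes, where Pou5f1 turned to -0.05. Neither gene was called. Of 117 called named genes, 0 changed direction in any of the 21 settings, 41 kept the call in all, and 76 lost it in at least 1. Of 1344 list counts recomputed, 179 moved by over 1.5 times. Dim probe sets, which lie near background, limit several of the called fibroblast genes.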

Other observations

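Genes of redox defence and of epigenetic control that fit none of the groups described were also measured. Srxn1, which repairs oxidised peroxiredoxins, read 8.47, 8.55 and 8.52 in IP14D-101 and 7.26, 7.27 and 7.46 in IP14D-1, a difference of 1.18 (SE 0.074, limma adjusted p = 2.15e-09). Gclm, a subunit of the enzyme that starts glutathione synthesis, differed by 1.07 (SE 0.101), but its other probe set of mean at least 6 did not share the direction. Mt1, a metallothionein, went the other way, with 11.40, 11.30 and 11.56 against 12.67, 12.67 and 12.58 (-1.22, SE 0.103). Dnmt3a, a de novo DNA methyltransferase, differed by 1.02 (SE 0.117) and lost the call without replicate 3 of IP14D-101, at 0.97, whereas Dnmt3b differed by -0.43 (SE 0.068) and was not called. Fgf5 and Otx2, markers of the primed epiblast, differed by -1.48 (SE 0.208) and -0.88 (SE 0.162), the latter not called. Fgf5 was dim, at 3.85 to 4.34 in IP14D-101 and 5.12 to 5.96 in IP14D-1. Hspa1b, a heat-inducible chaperone, was 7.56, 7.33 and 7.77 against 6.01, 5.95 and 6.38 (1.44, SE 0.177).

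Among the largest rises that belonged to no list were Hpdl (6.96, 6.95 and 7.22 against 4.17, 4.39 and 4.76), Polr3gl, a subunit form of RNA polymerase III (7.91, 7.81 and 7.91 against 5.78, 5.80 and 5.73), and Sdc4, a cell-surface heparan sulphate proteoglycan (8.74, 8.51 and 8.64 against 6.25, 6.25 and 6.51). The groups did not overlap in any of these genes, which the rule for naming the largest rises required. By this probe set Sdc4 was higher still in R1, with a mean of 9.52. Its other probe set of mean at least 6 differed by 0.14 between the lines (6.28 against 6.14) and was lowest in R1, at 5.31. Polr3gl was next highest in IP20D-3, at 7.22.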
